A study of Mus musculus with 16 samples.

Results

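The unfolded protein response and the protein folding machinery of the endoplasmic reticulum (ER) were read out through 35 named genes in macrophages of uPA-overexpressing mice. The genes are the stress sensors and their transcription factors, luminal chaperones, protein disulfide isomerases, ER-associated degradation factors, translocation and signal peptidase subunits, and targets of ATF4 and CHOP. They were chosen by name, with earlier results of these data known, and every probe carrying one of these symbols was taken. Of the 35 genes, 31 had a probe among the 15161 genes with one here, on 37 of 24607 probes.

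The 16 arrays were 1-colour Illumina Mouse Ref-8 v1.1 BeadChips. Groups were 6 SR-uPA+/0 and 6 nontransgenic animals, each an independent biological replicate, and 1 RNA pool per genotype, mixed from its 6 animals and hybridised 2 times. SR-uPA+/0 mice carry a transgene that overexpresses urokinase plasminogen activator (uPA), a secreted serine protease, in macrophages, with SR standing for the scavenger receptor promoter. All mice of both groups were female and Apoe-/-, lacking apolipoprotein E, ate a Western diet for 10 weeks from 5 weeks of age, and were 15 weeks old. Thioglycollate, an irritant that recruits macrophages, was injected into the peritoneum, cells were collected 5 days later, and those attached to the dish after 2 h were lysed. The RNA is that of a bulk cell sample, so fewer cells of a type and less RNA per cell cannot be told apart.

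Unfolded proteins in the ER lumen draw the chaperone BiP (Hspa5) away from the sensors IRE1 (Ern1), PERK (Eif2ak3) and ATF6. IRE1 splices Xbp1 mRNA, and spliced XBP1 and cleaved ATF6 drive chaperone and degradation genes through ER stress response elements. PERK slows translation, which favours ATF4 and its target CHOP (Ddit3), and amino acid shortage and other stresses feed into the same ATF4 branch. Macrophages use this response under lipid loading in atherosclerosis. Splicing of Xbp1 and protein activity of the sensors were not measured by these probes.

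Promoter windows are shown for the tested chaperone targets that hold an ER stress response element (ERSE) and for the ATF4-arm genes that hold a C/EBP-ATF response element (CARE), as the elements through which each branch is known to act, although the branches were set by gene lists and not by these elements. Sequences are those of RefSeq on GRCm38.p6, cover part of the 250 bases before to 50 bases after the gene start, and run 5′ to 3′ along the gene's strand. Capitals mark the element, searched on both strands as CCAAT and CCACG separated by any 9 bases (ERSE) and as TGATG and AA separated by any 1 base (CARE).
Hspa5 (chr2:34771985-34772083, plus strand): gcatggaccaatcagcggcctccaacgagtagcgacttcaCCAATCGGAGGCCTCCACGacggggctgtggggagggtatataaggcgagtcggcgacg
Creld2 (chr15:88819480-88819578, plus strand): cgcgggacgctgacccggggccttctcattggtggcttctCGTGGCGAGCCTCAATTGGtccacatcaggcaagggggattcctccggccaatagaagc
Hsp90b1 (chr10:86705493-86705694, minus strand): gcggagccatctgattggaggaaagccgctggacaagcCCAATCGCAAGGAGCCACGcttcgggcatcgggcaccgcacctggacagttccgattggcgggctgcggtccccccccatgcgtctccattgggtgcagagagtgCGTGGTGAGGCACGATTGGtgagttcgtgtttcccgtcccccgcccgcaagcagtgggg
Syvn1 (chr19:6046492-6046590, plus strand): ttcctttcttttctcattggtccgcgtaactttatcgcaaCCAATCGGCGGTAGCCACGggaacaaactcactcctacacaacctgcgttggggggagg
Asns (chr6:7693185-7693272, minus strand): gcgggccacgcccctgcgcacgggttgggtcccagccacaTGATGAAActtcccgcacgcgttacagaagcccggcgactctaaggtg
Chac1 (chr2:119351009-119351096, plus strand): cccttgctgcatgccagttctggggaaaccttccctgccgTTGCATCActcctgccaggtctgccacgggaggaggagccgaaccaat
Trib3 (chr2:152344011-152344086, minus strand): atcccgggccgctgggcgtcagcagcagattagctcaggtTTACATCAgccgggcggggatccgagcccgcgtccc

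The ERSE stood in 39 of 32851 mouse promoter windows of this length (0.119%) and the CARE in 1304 (3.97%). The element lay 65 bases before the gene start in Hspa5, 126 before it in Creld2 and 44 before it in Syvn1, while Hsp90b1 held 2, at 212 and 107 bases before the start. Of the 30 members with a promoter entry, 9 held an ERSE, and 5 of these 9 had no tested probe (Calr, Canx, Derl3, Dnajc3 and Pdia6). The variant ERSE-II, ATTGG and CCACG separated by 1 base, stood in 12 windows (0.0365%), among them Herpud1 and Dnajb11. A CARE lay 23 bases before the start in Asns, 193 before it in Chac1, 15 after it in Trib3 and also in the Herpud1 window, so 3 of the 6 genes of the ATF4 arm held one and none of the 6 held an ERSE. A match describes letters in this window and shows no binding.

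Each probe was tested with limma on log2 intensities when it exceeded the noise limit of the array, 56.8 to 56.9 deposited intensity units, on at least 3 of the 12 animal arrays. This kept 10534 probes and 23 of the 35 genes, on 26 probes, and 20 of the 23 exceeded the limit on all 12 animals. The exceptions were Hyou1 (4 of 6 SR-uPA+/0 and 5 of 6 nontransgenic animals above it), Ern1 (5 and 6) and Eif2ak3 (5 and 6). For Calr, Canx, Dnajb9, Dnajc3, Derl1, Derl3 and Ssr1 no animal array exceeded the limit, and for Manf 1 SR-uPA+/0 array did, at 67.7 units. Atf6, Dnajb11, Sdf2l1 and Pdia6 had no probe in the table used here. A low signal of a probe, as for the abundant luminal lectin gene Calr (-16.2 to 24.9 units), is a property of that probe and gives no level of the gene.

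Macrophage genes marked both groups: 9 of the 10 listed markers with a probe were tested, none passed the threshold (adjusted p under 0.05), and their summed intensity was 136400 to 152310 units in SR-uPA+/0 and 132870 to 148510 units in nontransgenic animals. Msr1 was not tested, and Cd68 and Csf1r had no probe here. Plau, which encodes uPA, spanned 536 to 2907 units in SR-uPA+/0 and 513 to 3527 units in nontransgenic animals (log2 difference -0.10 ± 0.42 SE, limma adjusted p = 0.967), so it did not separate the labels. SR-uPA+/0 animals 1 and 6 stood apart, with a standard deviation of probe deviations from the genotype mean of 0.34 and 0.32 on the log2 scale, against 0.24 to 0.29 in the other SR-uPA+/0 animals and 0.22 to 0.26 in nontransgenic animals. The design names 2 chips without saying which array lay on which, so chip was not a term of any fit.

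None of the 26 tested probes of these genes passed the threshold in limma, against 77 of 10534 probes overall (0.731%). At an unadjusted p under 0.05, 5 of the 23 genes were higher in SR-uPA+/0 macrophages and 0 were lower, where 4.03% of the 7510 tested genes were higher and 4.85% lower. The 5 were Creld2, Hspa5, Sec61b, Hsp90b1 and Syvn1, all on the ATF6/XBP1 side, and the exact permutation test over animals also placed 5 genes, all higher, under 0.05, against 4.69% of all tested genes. The log2 difference was above 0 for 20 of the 23 genes, against 51.9% of all tested genes, whose median was 0.01. The genes were chosen with earlier results known, and their values come from the same animals. These counts therefore describe the list and are no test of it. In none of the 23 genes were the genotypes free of overlap, against 0.293% (higher) and 0.866% (lower) of all tested genes. The plot of genotype differences gives the interval of each gene.

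**Figure D1:**
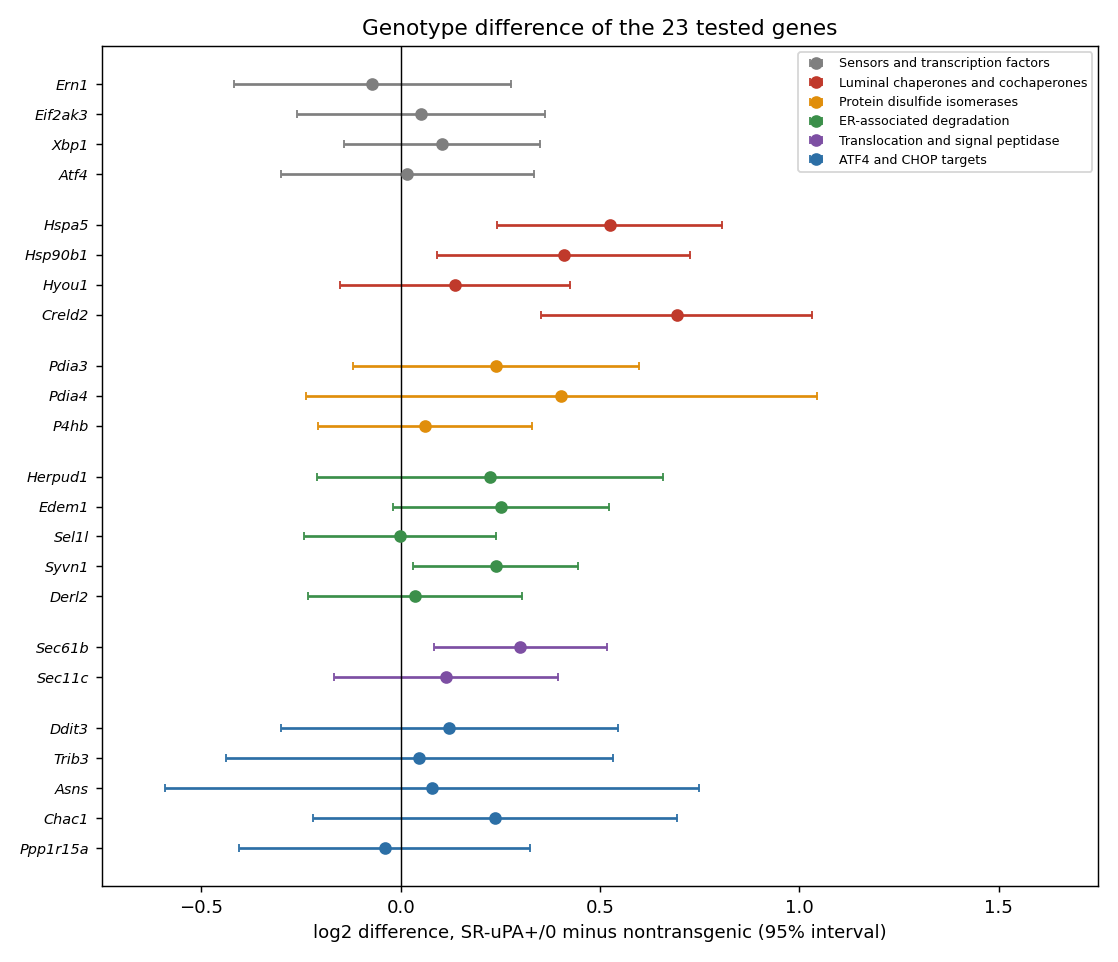
Genotype difference of each tested gene on the log2 scale, SR-uPA+/0 minus nontransgenic, grouped by role, with points for the limma estimate and bars for its 95% interval (6 animals per genotype). Intervals for Creld2, Hspa5, Hsp90b1, Sec61b and Syvn1 lie above 0, and those of all genes of the ATF4 arm cross 0.

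The sensors and transcription factors differed little. Ern1, the IRE1 kinase and nuclease, was dim at 41.2, 94.96 and 127 units (lowest, median and highest) in SR-uPA+/0 and 59.0, 92.5 and 217 units in nontransgenic animals (log2 difference -0.07, limma adjusted p = 0.939). Eif2ak3, the PERK kinase, had 40.2, 149 and 170 units in SR-uPA+/0 and 106, 125 and 140 units in nontransgenic animals (log2 difference 0.05, limma adjusted p = 0.953). Xbp1, the mRNA spliced by IRE1, had 12382, 14127 and 15686 units in SR-uPA+/0 and 10428, 13495 and 15805 units in nontransgenic animals. The genotypes overlapped over nearly their whole range, and the 2 lowest values belonged to nontransgenic animals 4 and 5. The Xbp1 estimate was 0.10 on the log2 scale, with an SE of 0.12 and a 95% interval of -0.14 to 0.35 (adjusted p = 0.853 in limma and p = 0.329 by exact permutation).

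Atf4, the transcription factor of the PERK branch, had 3251, 4173 and 5451 units in SR-uPA+/0 and 3329, 4241 and 5045 units in nontransgenic animals. Both the lowest and the highest value belonged to SR-uPA+/0 animals. Its estimate was 0.02 on the log2 scale, with an SE of 0.15 and a 95% interval of -0.30 to 0.34 (adjusted p = 0.986 in limma and p = 0.918 by exact permutation), and leaving out single animals turned its sign in 5 of 12 cases (-0.063 to 0.085). The transcript level of Atf4 does not report its translation, through which PERK mainly acts.

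Among luminal chaperones, Creld2 and Hspa5 were furthest from 0, without passing the adjusted threshold. Creld2, an ER-resident disulfide isomerase induced in ER stress, had 2003, 2537 and 3428 units in SR-uPA+/0 and 1277, 1400 and 2333 units in nontransgenic animals. All 6 SR-uPA+/0 animals lay above the nontransgenic mean, and only nontransgenic animal 1, at 2333 units, overlapped the SR-uPA+/0 range. Means were 2610 ± 539 units in SR-uPA+/0 and 1591 ± 406 units in nontransgenic animals (SD, n = 6 each). The estimate was 0.69 on the log2 scale, with an SE of 0.16 and a 95% interval of 0.35 to 1.03 (adjusted p = 0.0623 in limma and p = 0.00649 by exact permutation). It passed the threshold without SR-uPA+/0 animal 1 (limma adjusted p = 0.0439), without nontransgenic animal 1 (adjusted p = 0.0173) and with array weights (adjusted p = 0.0462). It did not pass in the other 10 of the 12 fits that left out 1 animal, where the adjusted p reached 0.171 without nontransgenic animal 2.

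Hspa5, the BiP chaperone whose release starts the response, had 342, 418 and 582 units in SR-uPA+/0 and 226, 252 and 382 units in nontransgenic animals. Of the nontransgenic animals only animal 1 lay inside the SR-uPA+/0 range, and the other 5 lay below every SR-uPA+/0 animal. Means were 444 ± 87.0 units in SR-uPA+/0 and 279 ± 62.3 units in nontransgenic animals (SD, n = 6 each), a ratio of 1.59. On the log2 scale, which understates folds of dim probes, the estimate was 0.52 with an SE of 0.13 and a 95% interval of 0.24 to 0.81 (adjusted p = 0.101 in limma and p = 0.00433 by exact permutation). No animal left out brought it past the threshold (0.46 to 0.60, adjusted p 0.0559 to 0.228).

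Hsp90b1, the GRP94 chaperone, had 5941, 8681 and 11595 units in SR-uPA+/0 and 5761, 6305 and 7519 units in nontransgenic animals. SR-uPA+/0 animal 1 was the lowest of its group, and the other 5 exceeded every nontransgenic animal. The estimate was 0.41 on the log2 scale, with an SE of 0.15 and a 95% interval of 0.09 to 0.73 (adjusted p = 0.404 in limma and p = 0.0325 by exact permutation). Hyou1, a chaperone of the large HSP70 family, had 33.6, 96.4 and 135 units in SR-uPA+/0 and 54.7, 64.2 and 85.9 units in nontransgenic animals, near the noise limit (log2 difference 0.14, adjusted p = 0.841).

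**Figure D2:**
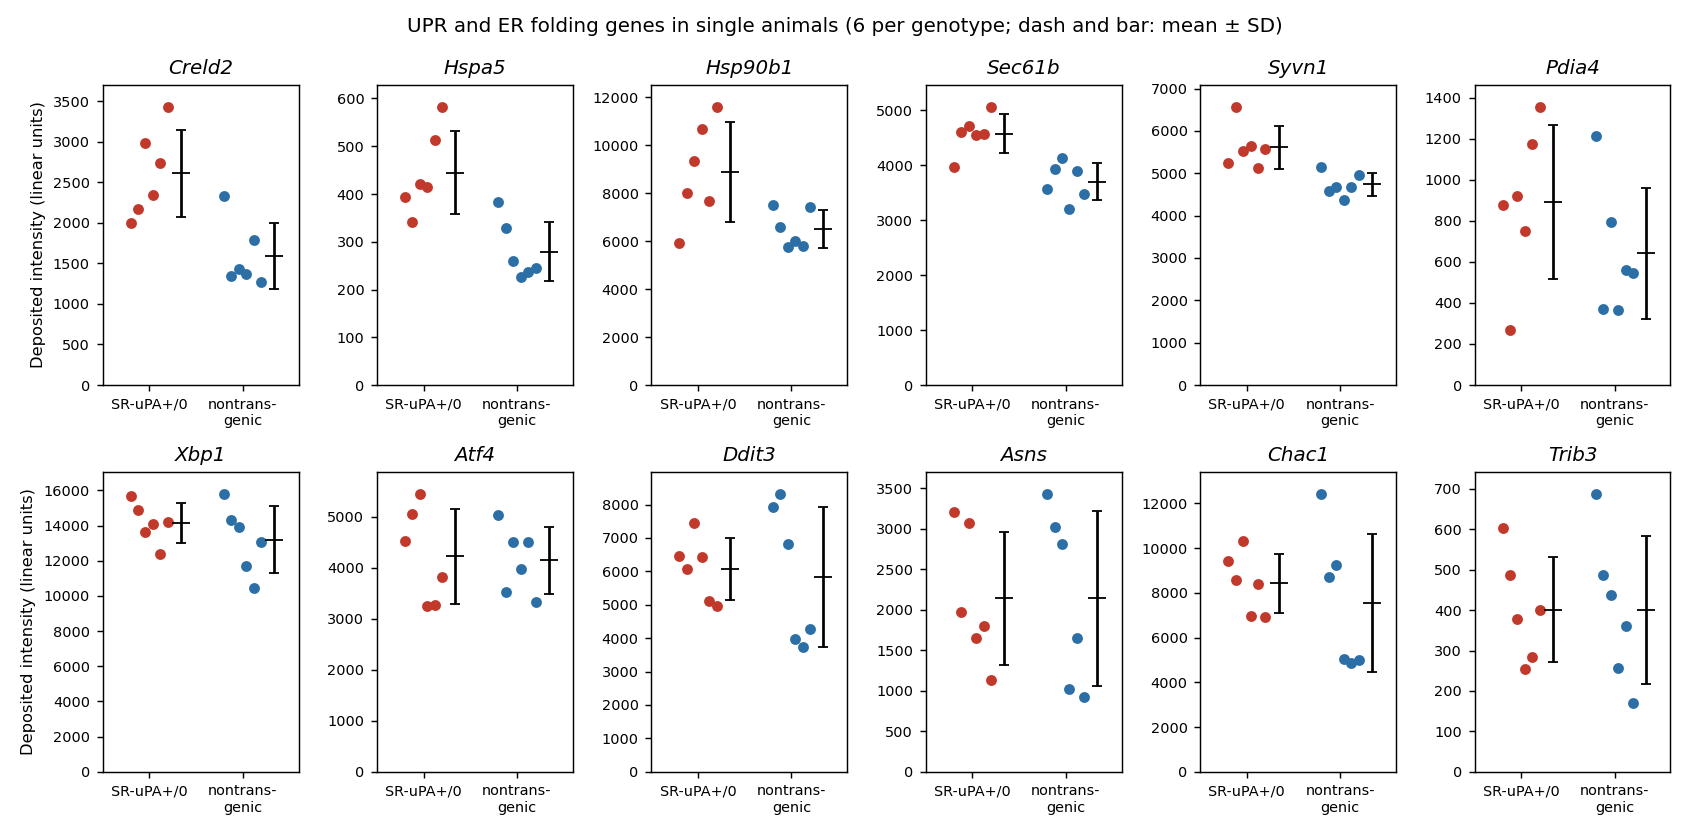
Deposited intensity (linear units) of 12 genes in each animal, with SR-uPA+/0 animals in red left of nontransgenic animals in blue, 6 each, and the mean ± SD beside them. Points run from animal 1 to 6. Creld2 is at 2003 to 3428 units in SR-uPA+/0 and 1277 to 2333 units in nontransgenic animals, while Ddit3, Asns and Chac1 spread more within nontransgenic animals than between genotypes.

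The protein disulfide isomerases, which form and reshuffle disulfide bonds in nascent proteins, had differences of 0.06 to 0.40. Pdia3, which works with the lectin chaperones, had 5786, 9120 and 11250 units in SR-uPA+/0 and 5586, 7112 and 10047 units in nontransgenic animals. The groups overlapped, with SR-uPA+/0 animal 1 lowest of its group, and the log2 difference was 0.24 ± 0.17 SE (95% interval -0.12 to 0.60, adjusted p = 0.768, exact permutation p = 0.219). Pdia4 had 268, 899 and 1354 units in SR-uPA+/0 and 366, 553 and 1211 units in nontransgenic animals. Its lowest value was SR-uPA+/0 animal 2 and its second highest nontransgenic animal 1 (log2 difference 0.40 ± 0.30 SE, 95% interval -0.24 to 1.04, adjusted p = 0.783, exact permutation p = 0.294), and it turned to -1.11 with marker terms in the fit. P4hb, the founding member of the family, ranged over 12518 to 18361 units in SR-uPA+/0 and 12883 to 17098 units in nontransgenic animals (difference 0.06, adjusted p = 0.929).

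Of the ER-associated degradation genes, Syvn1 and Edem1 led. Syvn1, the HRD1 ubiquitin ligase of the retrotranslocation channel, had 5122, 5551 and 6561 units in SR-uPA+/0 and 4369, 4678 and 5142 units in nontransgenic animals. Only SR-uPA+/0 animal 5 lay below the highest nontransgenic animal, and animal 2 was the highest of its group. The estimate was 0.24 on the log2 scale, with an SE of 0.10 and a 95% interval of 0.03 to 0.44 (adjusted p = 0.495 in limma and p = 0.00433 by exact permutation). Edem1, which marks misfolded glycoproteins for degradation, had 108, 153 and 228 units in SR-uPA+/0 and 84.3, 111 and 174 units in nontransgenic animals. Nontransgenic animal 5 exceeded every SR-uPA+/0 animal but animal 1 (log2 difference 0.25 ± 0.13 SE, 95% interval -0.02 to 0.52, adjusted p = 0.622, exact permutation p = 0.0671), and it turned to -0.22 with marker terms in the fit. Herpud1, a scaffold of the same ligase, ranged over 658 to 2148 units in SR-uPA+/0 and 753 to 1266 units in nontransgenic animals, so that the SR-uPA+/0 values enclosed the others (difference 0.22 ± 0.21 SE, adjusted p = 0.823). Derl2, a membrane protein of retrotranslocation, ranged over 1251 to 1576 units in SR-uPA+/0 and 1018 to 1737 units in nontransgenic animals (0.04, adjusted p = 0.960). Sel1l, the partner of the HRD1 ligase, ranged over 2865 to 4286 units in SR-uPA+/0 and 3185 to 4207 units in nontransgenic animals (-0.00, adjusted p = 0.996).

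Sec61b, a subunit of the translocation channel, had 3968, 4580 and 5055 units in SR-uPA+/0 and 3209, 3731 and 4128 units in nontransgenic animals on its brighter probe. Of the SR-uPA+/0 animals only animal 1 lay inside the nontransgenic range. The estimate was 0.30 on the log2 scale, with an SE of 0.10 and a 95% interval of 0.08 to 0.52 (adjusted p = 0.346 in limma and p = 0.00433 by exact permutation). The second tested probe of Sec61b averaged 865 ± 133 units in SR-uPA+/0 and 859 ± 139 units in nontransgenic animals (SD, n = 6 each), with a difference of 0.01 (adjusted p = 0.992). The probes therefore disagree, and which transcript each detects was not tested. Sec11c, a signal peptidase subunit, ranged over 2040 to 3340 units in SR-uPA+/0 and 1803 to 2637 units in nontransgenic animals (difference 0.11, adjusted p = 0.859).

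The ATF4 and CHOP targets differed in how much they varied between animals. The log2 SD within SR-uPA+/0 and within nontransgenic animals was 0.54 and 0.78 for Asns, 0.37 and 0.55 for Trib3, 0.22 and 0.52 for Ddit3, 0.23 and 0.57 for Chac1, and 0.45 and 0.12 for Ppp1r15a, beside a median of 0.27 over the tested members. Ddit3, the pro-apoptotic transcription factor CHOP, had 4966, 6248 and 7442 units in SR-uPA+/0 and 3727, 5540 and 8320 units in nontransgenic animals. Nontransgenic animals 1, 2 and 3 were at 6818 to 8320 units and animals 4, 5 and 6 at 3727 to 4262 units, and 5 of the 6 SR-uPA+/0 animals lay between these sets. The estimate was 0.12 on the log2 scale, with an SE of 0.20 and a 95% interval of -0.30 to 0.54 (adjusted p = 0.906 in limma and p = 0.608 by exact permutation).

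Asns, asparagine synthetase, had 1139, 1890 and 3211 units in SR-uPA+/0 and 924, 2230 and 3433 units in nontransgenic animals on its brighter probe. Nontransgenic animals 1, 2 and 3 were again the highest of their group, and the difference was 0.08 ± 0.32 SE (95% interval -0.59 to 0.75, adjusted p = 0.965). The second tested probe of Asns averaged 185 ± 37.1 units in SR-uPA+/0 and 156 ± 57.7 units in nontransgenic animals (SD). Its log2 SD was 0.20 and 0.33, and its difference 0.18 (limma adjusted p = 0.813). Chac1, which degrades glutathione, had 6908, 8466 and 10294 units in SR-uPA+/0 and 4867, 6878 and 12419 units in nontransgenic animals. Nontransgenic animals 4, 5 and 6 were the 3 lowest of the 12, and the difference was 0.24 ± 0.22 SE (95% interval -0.22 to 0.69, adjusted p = 0.822). Trib3, a pseudokinase that restrains ATF4 signalling, ranged over 254 to 603 units in SR-uPA+/0 and 171 to 688 units in nontransgenic animals (0.05 ± 0.23 SE, adjusted p = 0.972). Ppp1r15a, the GADD34 subunit that restores translation, ranged over 1269 to 3111 units in SR-uPA+/0 and 2229 to 2824 units in nontransgenic animals, with SR-uPA+/0 animal 6 lowest (-0.04 ± 0.17 SE, adjusted p = 0.968).

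The branches were set side by side as a description, without a test. The 14 tested ATF6/XBP1 chaperone targets, of 25 named, had a median log2 difference of 0.24 (range -0.00 to 0.69), with 13 above 0 and 5 at an unadjusted p under 0.05. The 6 genes of the ATF4/CHOP arm had a median of 0.06 (range -0.04 to 0.24), with 5 above 0 and none under 0.05, beside a median of 0.01 for all tested genes. The spread of the gene-averaged level between animals of a genotype was 0.10 (SD, log2) for the chaperone targets and 0.35 for the ATF4/CHOP arm. These averages are over 14 and 6 genes, and averaging more genes can by itself lower the spread, so the values are not directly comparable. By role, medians were 0.47 for the 4 tested luminal chaperones, 0.24 for the 3 disulfide isomerases, 0.22 for the 5 degradation genes, 0.21 for the 2 translocation and signal peptidase genes, 0.08 for the 5 ATF4 and CHOP targets and 0.03 for the 4 sensors. Of the 12 tested chaperone targets with a promoter entry, the 4 with an ERSE had differences of 0.24 to 0.69 and the 8 without one -0.00 to 0.40.

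**Figure D3:**
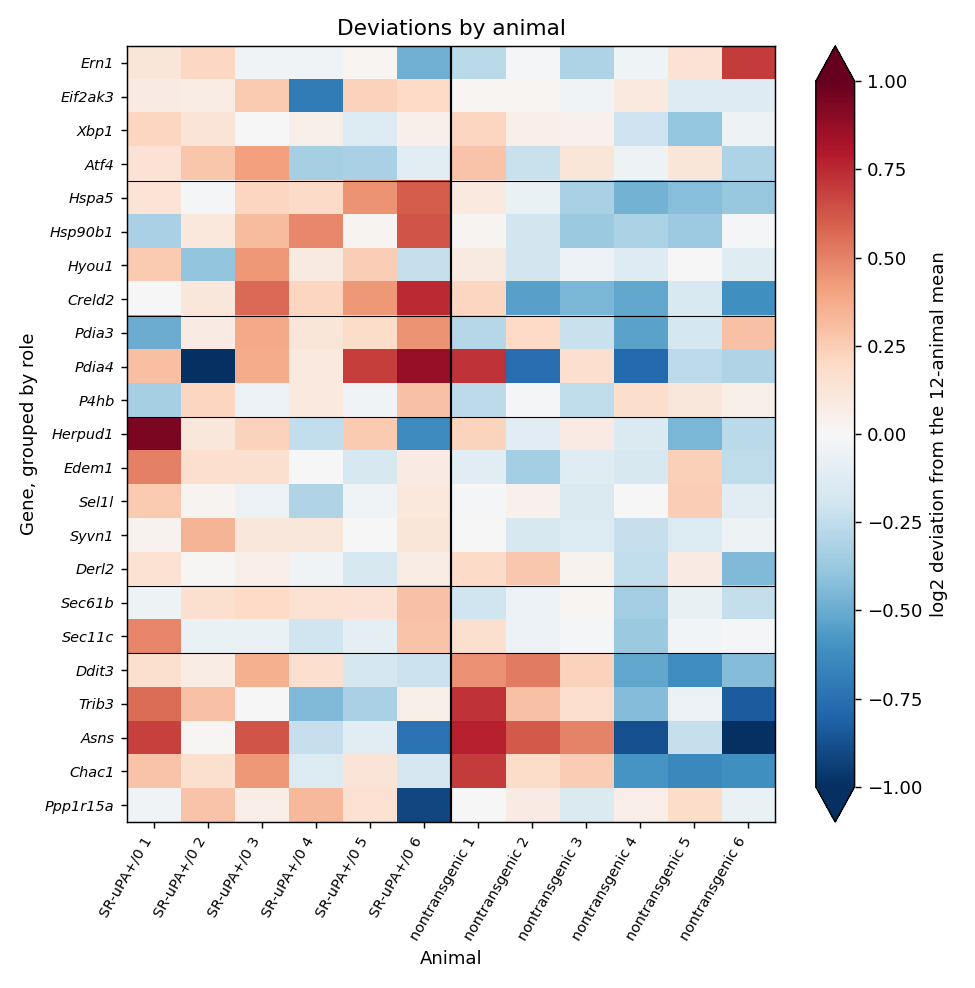
Log2 deviation of each tested gene (rows, grouped by role) from its mean over 12 animals, in SR-uPA+/0 animals 1 to 6 and then nontransgenic animals 1 to 6 (columns), where red is above and blue below the mean. Hspa5 and Creld2 are mostly red in SR-uPA+/0 and blue in nontransgenic animals 3 to 6, while Ddit3, Trib3, Asns and Chac1 are red in nontransgenic animals 1, 2 and 3.

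Single animals also stood out within their genotype. SR-uPA+/0 animal 6 was the highest of the 12 for Hspa5, Creld2, Hsp90b1, Pdia3, Pdia4 and Sec61b, and the lowest SR-uPA+/0 animal for Ddit3, Asns, Chac1 and Ppp1r15a. It was also the lowest of the 12 for Herpud1, a chaperone-side gene, at 658 units, while for Trib3 it lay within its group at 399 units. Nontransgenic animal 1 was the highest of its group for Hspa5, Creld2, Hsp90b1, Pdia4 and Syvn1 and likewise for Asns, Chac1, Trib3, Xbp1 and Atf4, so it was high for genes of both branches. SR-uPA+/0 animals 1, 2 and 3 lay above animals 4, 5 and 6 for Asns (1978 to 3211 units against 1139 to 1803 units), Chac1 (8555 to 10294 units against 6908 to 8377 units) and Atf4 (4526 to 5451 units against 3251 to 3820 units). Nontransgenic animals 1, 2 and 3 lay above animals 4, 5 and 6 for Ddit3, Asns and Chac1, as given above, and for Trib3 (438 to 688 units against 171 to 360 units). In these orderings Asns and Sec61b were read on their brighter probes. On the second Asns probe the lowest SR-uPA+/0 animal was animal 5 (117 units) and the highest nontransgenic animal was animal 3 (235 units).

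Co-variation was measured against Hspa5 and Ddit3 over the 12 animals, 43 relations in all with Benjamini-Hochberg adjustment over them. These genes were chosen with earlier results known, and since the mean of Hspa5 was higher in SR-uPA+/0 animals the main relations are also given with genotype means removed. Creld2 followed Hspa5 most closely, with Pearson's r = 0.88 (permutation p = 0.00028, adjusted p = 0.00602) and Spearman's rho = 0.88 (permutation p = 0.00031, adjusted p = 0.0133). The relation held without the 2 animals farthest from the median of Hspa5 (r = 0.81, permutation p = 0.00602) and was r = 0.69 with genotype means removed (permutation p = 0.0138). With genotype means removed, the deviations were permuted over all 12 animals and not within genotype. Those p-values are therefore approximate and can be too small.

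Sec61b (r = 0.75, permutation p = 0.00515, adjusted p = 0.0443; rho = 0.79, permutation p = 0.00329, adjusted p = 0.0354) and Hsp90b1 (r = 0.74, permutation p = 0.00631, adjusted p = 0.0452; rho = 0.73, permutation p = 0.00911, adjusted p = 0.0653) also followed Hspa5. Both relations rest in part on the 2 farthest animals, SR-uPA+/0 6 and nontransgenic 4, since r without them was 0.57 (permutation p = 0.0881) for Sec61b and 0.56 (permutation p = 0.0904) for Hsp90b1. With genotype means removed r was 0.34 for Sec61b (permutation p = 0.276) and 0.50 for Hsp90b1 (permutation p = 0.0949). The relations of Sec61b and Hsp90b1 with Hspa5 therefore rest in part on the difference between genotype means too, and within genotypes neither was under 0.05. Pdia4, with r = 0.67 over all animals, had 0.70 with genotype means removed (permutation p = 0.0102). Syvn1 had r = 0.58 over all animals and -0.08 with genotype means removed. Across genes, the median r with Hspa5 was 0.42 for 13 chaperone targets, 0.21 for 6 genes of the ATF4/CHOP arm and 0.01 for all 7509 genes, of which 0.906% exceeded 0.7. The pooled value of the ATF4/CHOP arm joins opposite signs. With Hspa5, r in SR-uPA+/0 and in nontransgenic animals was -0.71 and 0.87 for Ddit3, -0.48 and 0.88 for Chac1, -0.38 and 0.81 for Trib3 and -0.62 and 0.80 for Asns. Atf4 had -0.54 and 0.30, and Ppp1r15a, of the same arm, was below 0 in both genotypes (-0.75 and -0.09). Opposite signs also occurred outside this arm, for Herpud1 (-0.52 and 0.69), Syvn1 (-0.54 and 0.58), Derl2 (-0.24 and 0.68) and Xbp1 (-0.57 and 0.83). They ran the other way for P4hb (0.29 and -0.68) and Sel1l (0.05 and -0.10). The Derl2 value is that of its brighter probe, on which nontransgenic animal 2 was the highest of its group (1737 units). On the second tested Derl2 probe that animal was the lowest (603 units). Among the chaperone targets above 0 in both were Creld2 (0.81 and 0.58), Hsp90b1 (0.48 and 0.63) and Pdia4 (0.86 and 0.52). These are values over 6 animals each, and the difference between genotypes was not tested. Genes of 1 animal share its RNA sample and array and are not independent replicates.

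Chac1 and Asns followed Ddit3. Chac1 had r = 0.89 (permutation p = 0.00016, adjusted p = 0.00602), rho = 0.86 (permutation p = 0.00067, adjusted p = 0.0144), r = 0.80 without the 2 farthest animals (permutation p = 0.00458) and r = 0.89 with genotype means removed. Asns had r = 0.84 (permutation p = 0.00101, adjusted p = 0.0145), rho = 0.82 (permutation p = 0.00199, adjusted p = 0.0285), r = 0.90 without the 2 farthest animals (permutation p = 0.00045) and r = 0.85 with genotype means removed. Both genes followed Ddit3 in each genotype taken alone, with r = 0.62 in SR-uPA+/0 and 0.94 in nontransgenic animals for Chac1 and r = 0.78 in SR-uPA+/0 and 0.89 in nontransgenic animals for Asns. For Ddit3 itself SR-uPA+/0 animals 1, 2 and 3 were at 6058 to 7442 units and animals 4, 5 and 6 at 4966 to 6438 units, so these sets overlapped, unlike those of nontransgenic animals. For Chac1 and the brighter Asns probe, on which the Asns correlations were also computed, they were apart in both genotypes. On the second tested Asns probe the SR-uPA+/0 sets overlapped (177 to 225 units against 117 to 197 units). The nontransgenic sets were apart on it (166 to 235 units against 93.1 to 130 units).

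Xbp1 had r = 0.79 with Ddit3 (permutation p = 0.0016, adjusted p = 0.0172) and rho = 0.69 (permutation p = 0.0174, adjusted p = 0.0937). Without nontransgenic animals 4 and 5 r was 0.55 (permutation p = 0.0972), so that relation rests at least in part on them. It was 0.78 with genotype means removed (permutation p = 0.00194), with 0.37 in SR-uPA+/0 and 0.89 in nontransgenic animals taken alone. Trib3, with r = 0.65, missed the adjusted threshold (permutation p = 0.0244, adjusted p = 0.117). Derl2, a chaperone-side gene, also missed it on its brighter probe, with r = 0.67 (permutation p = 0.0156, adjusted p = 0.0959) and rho = 0.54 (permutation p = 0.0751). Its r was 0.84 without the 2 farthest animals (permutation p = 0.00152) and 0.66 with genotype means removed. The median r with Ddit3 was 0.65 for 5 genes of the ATF4/CHOP arm, 0.18 for 13 chaperone targets and -0.01 for all genes, of which 1.52% exceeded 0.7.

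**Figure D4:**
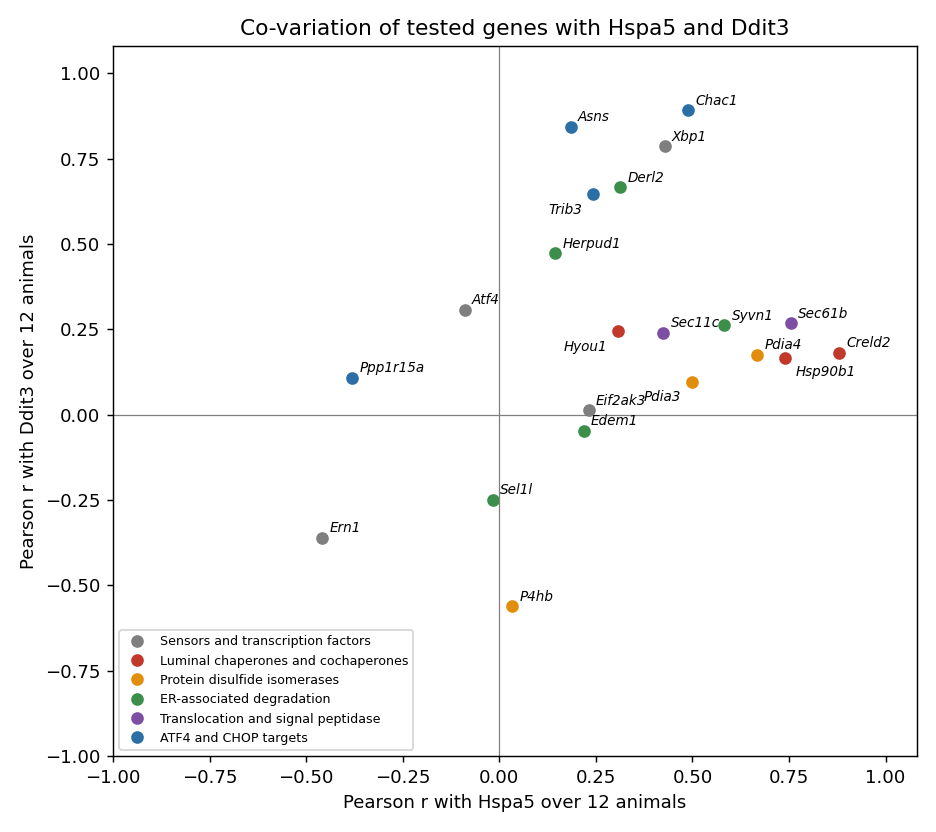
Pearson's r of each tested gene, on its brightest tested probe, with Hspa5 (x axis) and with Ddit3 (y axis) over 12 animals, coloured by role. Creld2, Sec61b, Hsp90b1 and Pdia4 lie at the right with r of 0.67 to 0.88 for Hspa5, and Chac1, Asns and Xbp1 lie at the top with r of 0.79 to 0.89 for Ddit3.

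The pools hold the RNA of the same animals and give no independent evidence. Hspa5 read 574 and 436 units in the 2 hybridisations of the SR-uPA+/0 pool and 267 and 438 units in those of the nontransgenic pool, a log2 difference of 0.44. The second hybridisations of both pools were at the same level. Its repeats differed by 0.33 (SR-uPA+/0 pool) and 0.55 (nontransgenic pool) on the log2 scale, beside a difference of 0.52 between the animals. Creld2 read 2004 and 1768 units in the SR-uPA+/0 pool and 1408 and 1451 units in the nontransgenic pool. This was a difference of 0.37 with no overlap, beside 0.69 between the animals. Hsp90b1 read 8207 and 8283 units in the SR-uPA+/0 pool and 6460 and 6887 units in the nontransgenic pool (0.31). Syvn1 went the other way, with 4958 and 5458 units in the SR-uPA+/0 pool and 5697 and 6605 units in the nontransgenic pool (-0.23). Ddit3 read 4680 and 4862 units in the SR-uPA+/0 pool and 5888 and 5724 units in the nontransgenic pool (-0.28). Pdia4 was also below 0 (-0.28). The brighter Sec61b probe read 4118 and 4928 units in the SR-uPA+/0 pool and 4702 and 3466 units in the nontransgenic pool (0.16). Of the 23 tested genes, 15 had a pool difference of the same sign as that between the animals. The median gap between repeats over the tested members was 0.14 in the SR-uPA+/0 pool and 0.21 in the nontransgenic pool, and no test was run on pools.

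Genes of neighbouring pathways gave no call. Of 33 further ER folding and quality control genes 23 were tested, 0 passed the threshold and their median difference was -0.02. The smallest p belonged to Ube2g2, a ubiquitin-conjugating enzyme of ER-associated degradation (153 units in SR-uPA+/0 and 95.5 units in nontransgenic animals on average, difference 0.37, adjusted p = 0.568), and Fkbp2, an ER prolyl isomerase (3634 and 2871 units, 0.31, adjusted p = 0.604). Of 34 further translocation and secretion genes 24 were tested, 0 passed and the median was 0.07. Sec61a1, the pore subunit of the translocation channel, averaged 1663 units in SR-uPA+/0 and 1278 units in nontransgenic animals (difference 0.36 ± 0.13 SE, adjusted p = 0.391), and Srprb, a subunit of the signal recognition particle receptor, 664 and 539 units (0.26 ± 0.10 SE, adjusted p = 0.414).

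Of 36 further ATF4 target and integrated stress response genes 23 were tested, 0 passed and the median was -0.03. Shmt2, a mitochondrial enzyme of one-carbon metabolism, averaged 49.7 units in SR-uPA+/0 and 104 units in nontransgenic animals (difference -0.50 ± 0.19 SE, adjusted p = 0.421). Its SR-uPA+/0 mean was below the noise limit. Gars, glycyl-tRNA synthetase, averaged 6725 units in SR-uPA+/0 and 9173 units in nontransgenic animals (-0.54 ± 0.23 SE, adjusted p = 0.505). At an unadjusted limma p under 0.05, 3 of the 23 were lower and 1 was higher, where 4.85% of all tested genes were lower and 4.03% higher. The higher gene was Slc7a11, at 327 units in SR-uPA+/0 and 152 units in nontransgenic animals on average (0.71 ± 0.33 SE, adjusted p = 0.568).

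Markers of other cells moved with genotype, and their part in the values above was not tested. The fit with marker terms given last cannot separate it from genotype, because these markers differ by genotype themselves. Of 9 tested neutrophil markers 4 rose (S100a8, S100a9, Retnlg and Pglyrp1) and none fell, against 0.133% of all tested genes higher, and their summed intensity was 12740 to 45934 units in SR-uPA+/0 and 5058 to 18535 units in nontransgenic animals. Cxcr2, Mmp8, Ngp, Elane, Mpo and Chil3 were not tested. Of 13 tested fibroblast and mesothelial markers 6 fell and none rose, against 0.746% of all tested genes lower. Sums were 1556 to 6872 units in SR-uPA+/0 and 9030 to 17816 units in nontransgenic animals. The 6 were the fibroblast and matrix genes Col1a1, Col3a1, Col5a1, Col6a1, Serpinh1 and Serping1. No mesothelial marker passed: log2 differences were 0.10 for Msln, -0.26 for Krt8, -0.03 for Krt18, -0.07 for Upk3b and -0.66 for Wt1 (limma adjusted p 0.127 for Wt1). Of 4 tested plasma cell markers (Mzb1, Sdc1, Irf4 and Xbp1) none passed. Their sum is mostly Xbp1, a member here, and gives no level of plasma cells. The others averaged, in SR-uPA+/0 and nontransgenic animals, 82.7 and 70.6 units (Mzb1), 811 and 680 units (Sdc1) and 175 and 140 units (Irf4). Jchain, Tnfrsf17, Prdm1 and Pou2af1 were not above the noise limit on enough arrays. Of 4 tested B and T lymphocyte markers none passed. Of 10 tested immediate early and cell handling genes none passed, with a median difference of -0.03.

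The mean level of neutrophil markers and that of fibroblast and mesothelial markers were entered in a further fit. In it Hspa5 had a difference of 0.62 ± 0.32 SE (limma adjusted p = 0.832). Creld2 had 0.52 ± 0.37 SE (adjusted p = 0.875) and Hsp90b1 0.62 ± 0.39 SE (adjusted p = 0.862). In the same fit the difference turned below 0 for Pdia4 (-1.11 ± 0.66 SE, adjusted p = 0.862) and Edem1 (-0.22 ± 0.33 SE, adjusted p = 0.941), and for Atf4 (-0.42 ± 0.39 SE, adjusted p = 0.894), while Ddit3 was at -0.00055 ± 0.48 SE. Standard errors were larger with these terms, which move with genotype themselves, so neither kept nor turned signs in this fit show the part of other cells. Without SR-uPA+/0 animals 1 and 6, the difference was 0.47 for Hspa5 (adjusted p = 0.206) and 0.68 for Creld2 (adjusted p = 0.0898).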

How the data were processed

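Arrays of 12 animals and 4 pool hybridisations were used. The deposited intensity values are linear and were made by the authors with BeadStudio, credited to the submitters' processing notes. Its version, the background subtraction and the normalization are not stated there. Values run below 0 and share nearly the same quartiles. The 32 columns of another deposited table match no label and were left out. Probe names came from the platform annotation, which can be old: 19852 probes had 1 symbol and 4755 had none.

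limma's normexp (saddle, offset 16, in effect adding 96.95), quantile normalization of the animal arrays and log2 followed. The noise limit was 1.64 times the root mean square of negative values. Tests used limma 3.58.1 (lmFit, eBayes; R 4.3.3), with Benjamini-Hochberg adjustment over 10534 probes and a threshold of 0.05. Exact two-sided permutation tests ran over the 924 assignments of animals, with a smallest possible p of 0.00216. Correlations used 100000 permutations. The brightest tested probe stood for a gene. The procedure was tested on simulated data, and the number of arrays limits precision.

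Values per animal were to be given for Hspa5, Xbp1, Atf4, Ddit3, members past the threshold and the 8 members with the smallest p. Those of Ern1, Eif2ak3, Hyou1, Asns and Chac1 were added after their values were seen. In other pathway lists the 2 genes with the smallest p are named, and Slc7a11 was added after its values were seen. The members and lists were chosen with earlier results of these data known. Alternatives varied the background step, normalization, filter, floor, variance model (array weights with statmod 1.5.0), animals and marker terms.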

Additional observations from a re-analysis of the deposited data

Results flagged for a closer look

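Of 52 groups of 6 animals examined with Dixon's criterion at its 95% critical value, 4 held an animal far from the rest, where chance marks about 1 in 20 groups. SR-uPA+/0 animal 4 was lowest for Eif2ak3, at 40.2 units with the next at 138 units (gap over range 0.807). SR-uPA+/0 animal 6 was lowest for Ppp1r15a, at 1269 units with the next at 2408 units (0.709), and for Ern1, at 41.2 units with the next at 91.4 units (0.646). SR-uPA+/0 animal 2 was highest for Syvn1, at 6561 units with the next at 5579 units (0.631). All 4 were SR-uPA+/0 animals, and their cause was not tested.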

How the results depend on the processing

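The count of all probes past the threshold was 77, and became 42 without the filter, 33 with probes above noise on all 12 arrays, 2 with the marker means as terms, and 42 to 90 when single animals were left out (42 without nontransgenic animal 2, 45 without SR-uPA+/0 animal 4). The count of member probes was 0, and became 1 (Creld2) with array weights and 0 to 1 when single animals were left out, Creld2 passing without SR-uPA+/0 animal 1 or nontransgenic animal 1. With marker means as terms the log2 difference turned to -0.42 for Atf4, -0.00055 for Ddit3, -0.22 for Edem1 and -1.11 for Pdia4, and the cause was not tested. Leaving out single animals gave Atf4 -0.063 to 0.085, with 5 values below 0. The chaperone-target median stayed at 0.19 to 0.28 under every alternative run, and the ATF4/CHOP median ranged from -0.13 to 0.21. Creld2 ranged from 0.52 to 0.80 and Hspa5 from 0.46 to 0.67, positive under every alternative run. No paired analysis was possible because the animals' numbers were given in accession order and pair nothing.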
